A study of Mus musculus with 18 samples.

Results

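Cadherins and the non-clustered protocadherins were followed across the layers of the mouse neocortex, in mice whose embryonic cortex had received FOXP2 or GFP plasmids. The set holds every gene in the count table whose symbol is Cdh or Pcdh followed by a number only, which came to 34 of 54446 genes, 23 cadherins and 11 protocadherins. The clustered protocadherins and genes with other symbol patterns are not in it.

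The libraries came from 6 CD-1 mice at postnatal day 7, with layers 5-6 (L5-6), layer 4 (L4) and layers 2-3 (L2-3) of each mouse in separate libraries, 18 in all. CD-1 is an outbred stock. On embryonic day E14.5 plasmids had been electroporated in utero into the wall of the ventricle, where the neuronal progenitors lie: human FOXP2 with Gfp in 2 mice (huFOXP2), mouse Foxp2 with Gfp in 1 mouse (moFoxp2), and the plasmid without FOXP2 in 3 mice (GFP). The 2 huFOXP2 mice and the moFoxp2 mouse are called the FOXP2 mice where they form one group. The tissue of each layer was dissected from 300 µm sagittal sections and pooled per mouse. By the labels L4 held the GFP-positive cells and the other layers GFP-negative ones, and a dissected layer also holds cells that took up no plasmid, in shares that the sources used here do not give. The labels use the word infragranular for the deep layers and for L2-3 as well, and L2-3 is taken here by its layer numbers.

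Classical cadherins are calcium-dependent adhesion proteins that bind like molecules on the neighbouring cell and are tied through catenins to the actin skeleton. Type I members such as N-cadherin are broadly distributed, whereas type II members are known for restricted patterns that mark cortical layers, areas and the circuits linking them. The delta protocadherins adhere weakly and signal through their cytoplasmic tails, in part through the actin-regulating WAVE complex. FOXP2 is a forkhead transcription factor that in the mouse cortex is a marker of layer 6 neurons.

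The introduced gene was checked first. In L5-6, Foxp2 had 39.7, 77.8 and 69.5 CPM (counts per 1000000 reads assigned to genes) in huFOXP2 mouse 1, huFOXP2 mouse 2 and the moFoxp2 mouse, against 61.3, 68.5 and 52.4 CPM in GFP mice 1 to 3. In L4 it had 33.3, 65.0 and 34.8 CPM in the FOXP2 mice, against 5.95, 8.73 and 5.40 CPM in the GFP mice. In L2-3 it had 20.3, 52.2 and 21.2 CPM in the FOXP2 mice, against 1.77, 6.55 and 5.23 CPM in the GFP mice. The groups did not overlap in L4 or in L2-3, although the labels call the L2-3 cells GFP-negative. The log2 fold change was 2.75 ± 0.30 (SE, adjusted p = 0.0247) in L4, 2.78 ± 0.51 (adjusted p = 0.0829) in L2-3 and 0.02 ± 0.23 in L5-6. How reads of the human cDNA were assigned to the mouse gene is not given in the sources used here.

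Library totals ran between 10111149 and 23404528 counts. The 12 markers of layer 6 and subplate neurons summed to between 769.9 and 1392 CPM in L5-6, 235.7 and 331 CPM in L4, and 176 and 254 CPM in L2-3. Foxp2 is among these 12, so the sums of the FOXP2 mice include the introduced gene. It made up 33.3 to 65.0 CPM of their L4 sums and 20.3 to 52.2 CPM of their L2-3 sums. The 8 markers of layer 2-3 neurons summed to 708.5 to 1356 CPM in L5-6, 1763 to 2110 CPM in L4 and 1268 to 1924 CPM in L2-3. Of these, 3 were higher in L4 than in L2-3 and none lower (list median 0.30 on the log2 scale, against 0.03 over all genes tested). The L2-3 libraries also held markers of the tissue at the cortical surface, since 8 meningeal fibroblast markers summed to at most 46.8 CPM in L5-6 and 91.4 CPM in L4, against 394.7 to 2119 CPM in L2-3. GFP mouse 1 stood apart from the other GFP mice. Its libraries differed from theirs by a chi-square per degree of freedom of 23.5 to 54.3, against 8.89 to 12.4 for the other replicate pairs. It was the lowest mouse for 19 of the 28 members with a mean of at least 1 CPM. The 3 libraries of huFOXP2 mouse 1 held photoreceptor markers at 6.92 to 14.2 summed CPM, against at most 0.909 CPM in the other mice. Nothing in the labels says that the mice came from separate litters, so p-values cover the spread between these mice only.

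Within the family, levels per kilobase of exon spanned several orders of magnitude. The delta1 protocadherin Pcdh9 was at the top with 20.5 ± 3.10 CPM per kilobase (SD of the 6 mouse means over the 3 layers), followed by Pcdh1 at 19.8 ± 2.03, N-cadherin (Cdh2) at 18.01 ± 2.47 and Pcdh7 at 17.97 ± 2.44. These neighbours differed by less than their spread. Among type II members Cdh6 was highest at 15.8 ± 2.61 CPM per kilobase, with Cdh8 at 12.04 ± 2.61, and VE-cadherin (Cdh5), the junction protein of blood vessel endothelium, at 11.4 ± 2.05. The delta2 protocadherin Pcdh10 had 13.4 ± 1.47 CPM per kilobase and the GPI-anchored T-cadherin (Cdh13) had 11.5 ± 2.02.

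At the bottom, 6 members had a mean below 1 CPM. Cdh16 had a single count in all 18 libraries. It did not pass the filter on low counts in the layer comparisons, nor did Cdh17, Cdh19 and Cdh26, which leaves 30 members tested there. The other gene models that overlap a member matter for the exact levels, since 20 of the 34 members are overlapped on the opposite strand and the use of strand in counting is not given in the sources used here.

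Between layers, many of these genes differed in level, and they fell into genes highest in L5-6, genes highest in L4 and genes highest in L2-3. Taking the 6 mice together, with the mouse as a block in edgeR's quasi-likelihood test, 18 of 30 members passed an adjusted p of 0.05 for L5-6 over L2-3, 10 higher in L5-6 and 8 lower. Of all genes tested in that comparison, 38.2% passed, 18.9% higher and 19.3% lower. For L4 over L2-3, 19 of 30 members passed, 12 higher and 7 lower, where 35.4% of all genes passed, 16.3% higher and 19.1% lower. For L5-6 over L4, 17 of 30 members passed, 7 higher and 10 lower, where 34.8% of all genes passed, 18.6% higher and 16.2% lower. Without the mouse as a block, 11 members passed for L5-6 over L4, where 22.8% of all genes passed. For L4 over L2-3, 17 members passed in the FOXP2 mice alone (43.6% of all genes) and 8 in the GFP mice alone (6.32% of all genes). The 2 layers did not overlap for 8, 1 and 6 members in these comparisons, where 11.9%, 11.2% and 10.5% of all genes did not overlap. The members' median log2 fold change was 0.05, 0.18 and 0.10 in these comparisons, against 0.00, 0.03 and 0.01 over all genes tested.

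Type II cadherins were divided. Of 12 tested, 5 were higher and 1 lower in L5-6 than in L2-3, and 7 were higher and 2 lower in L4 than in L2-3. All 3 delta1 protocadherins were higher in L4 than in L2-3. Of the 5 delta2 protocadherins, 2 were lower in L5-6 than in L2-3 and none higher. These counts are over the 6 mice. For L4 over L2-3 in the GFP mice alone, Cdh7 and Cdh22 passed of the 7 type II members counted as higher, and Cdh24 passed too. Pcdh9 also passed there, whereas Pcdh1 was at 0.20 ± 0.08 and Pcdh7 at 0.03 ± 0.08. For L5-6 over L2-3 in the GFP mice alone, Pcdh8 was at -1.57 ± 0.14 and Pcdh18 at -0.08 ± 0.18.

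**Figure D1:**
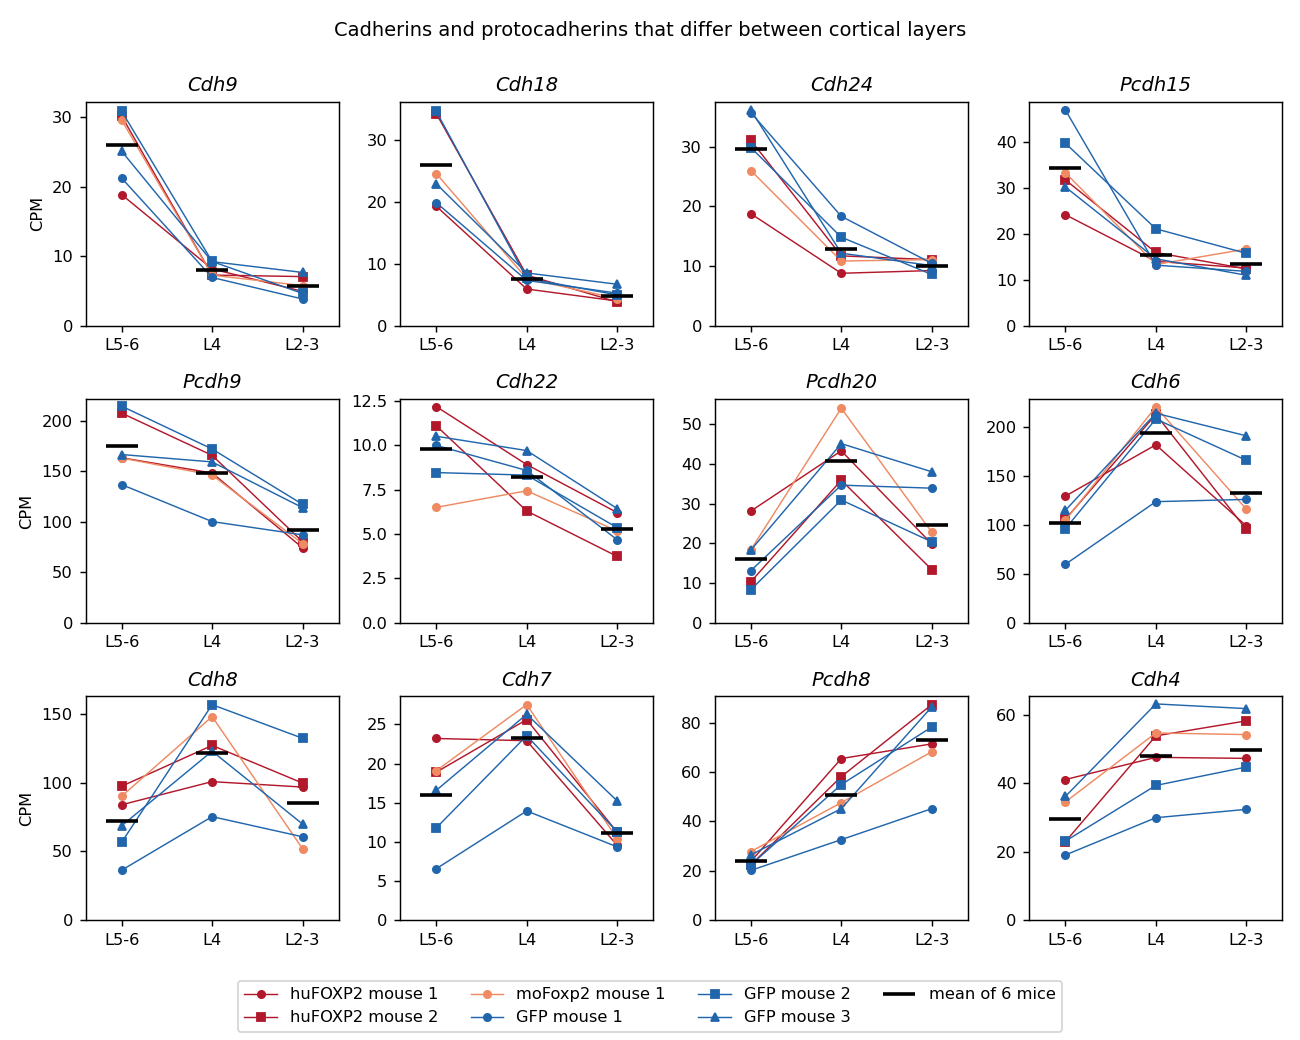
CPM of 12 members (vertical axes from 0) in the L5-6, L4 and L2-3 library of each of the 6 mice; points joined by a line are 1 mouse, and black bars are means of the 6 mice. Cdh9 and Cdh18 are above 18 CPM in every L5-6 library and below 10 CPM in every other, Pcdh20 is highest in L4 and Pcdh8 in L2-3.

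The pair with the largest differences toward the deep layers was Cdh18 and Cdh9, type II cadherins whose genes both lie on chromosome 15, where Cdh6, Cdh10 and Cdh12 lie too. Cdh9 is known in the mouse hippocampus for synapses between dentate granule cells and CA3 neurons. As the members that most clearly separated deep from upper layers in opposite directions, Cdh9, Cdh18 and Pcdh8 are shown with the RefSeq promoter window of 250 bases before to 50 after the gene start (build GRCm38.p6). The windows are chr15:16728665-16728964 on the plus strand for Cdh9, chr15:23036213-23036512 on the plus strand for Cdh18 and chr14:79771263-79771562 on the minus strand for Pcdh8. That of Cdh18 lies inside the GENCODE gene model, not at its start. That of Cdh9 contains the GENCODE start (16728756), and its RefSeq start and its CCAAT box both lie downstream of that position. Capitals mark a CCAAT box on either strand (CCAAT or ATTGG).
Cdh9: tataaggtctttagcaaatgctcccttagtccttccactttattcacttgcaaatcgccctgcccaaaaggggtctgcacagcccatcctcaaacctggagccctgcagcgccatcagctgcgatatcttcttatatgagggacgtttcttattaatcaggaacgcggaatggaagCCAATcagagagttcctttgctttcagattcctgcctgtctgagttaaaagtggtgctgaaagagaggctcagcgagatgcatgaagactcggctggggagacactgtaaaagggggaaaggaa
Cdh18: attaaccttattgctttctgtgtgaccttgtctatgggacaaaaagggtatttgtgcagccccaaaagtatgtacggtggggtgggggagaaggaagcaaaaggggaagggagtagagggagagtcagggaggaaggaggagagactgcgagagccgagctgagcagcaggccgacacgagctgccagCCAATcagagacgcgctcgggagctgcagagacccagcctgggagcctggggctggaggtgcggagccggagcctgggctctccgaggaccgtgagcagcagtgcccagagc
Pcdh8: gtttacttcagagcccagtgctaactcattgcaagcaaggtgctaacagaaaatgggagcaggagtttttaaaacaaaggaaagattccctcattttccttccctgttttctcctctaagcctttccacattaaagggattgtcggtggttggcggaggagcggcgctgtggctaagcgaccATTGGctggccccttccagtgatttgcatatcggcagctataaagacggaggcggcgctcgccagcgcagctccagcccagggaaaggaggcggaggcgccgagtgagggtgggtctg
The longest run of letters that the Cdh9 and Cdh18 windows share is AGCCAATCAGAGA, 13 bases that hold the CCAAT box of both, and 31 of all 32851 promoter windows, or 0.0944%, hold that run. A CCAAT box on either strand was in the windows of 15 of the 22 members that have one in the table, Pcdh8 included, and in 37.4% of all windows. The forkhead motif TGTTTAC, on either strand, was in 0 of the 25 member windows and in 3.65% of all windows. These matches describe the letters in the windows only.

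Cdh18 had 19.3, 23.8 and 34.7 CPM (lowest, median and highest of 6 mice) in L5-6, against 5.92, 7.64 and 8.52 CPM in L4 and 3.83, 4.67 and 6.69 CPM in L2-3. Cdh9 had 18.9, 27.3 and 30.9 CPM in L5-6, against 6.93, 7.71 and 9.23 CPM in L4 and 3.83, 5.34 and 7.65 CPM in L2-3. For both genes every L5-6 library lay above every library of the upper layers, while L4 and L2-3 overlapped. The log2 fold change of L5-6 over L2-3 was 2.39 ± 0.14 (SE) for Cdh18 (edgeR, adjusted p = 3.08e-08) and 2.21 ± 0.14 for Cdh9 (adjusted p = 3.22e-08). L4 was above L2-3 by 0.62 ± 0.15 for Cdh18 and 0.53 ± 0.14 for Cdh9, in 6 of 6 mice each, although neither passed in the GFP mice alone (adjusted p = 0.242 and 0.0869), and Cdh9 did not pass in the FOXP2 mice alone (adjusted p = 0.134).

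Cdh24, another type II cadherin, had 18.8, 30.5 and 36.2 CPM in L5-6, against 8.78, 11.9 and 18.3 CPM in L4 and 8.58, 10.3 and 11.1 CPM in L2-3. Pcdh15, which in the inner ear forms the tip links of hair cells with Cdh23, had 24.2, 32.5 and 46.97 CPM in L5-6, against 13.2, 14.3 and 21.1 CPM in L4 and 10.97, 12.5 and 16.7 CPM in L2-3. In both genes the L5-6 libraries did not overlap either upper layer. The log2 fold change of L5-6 over L2-3 was 1.53 ± 0.12 for Cdh24 and 1.35 ± 0.13 for Pcdh15 (edgeR, adjusted p = 4.36e-07 and 1.90e-06). Its partner in the ear, Cdh23, was also higher in L5-6, by 1.21 ± 0.31, but at a mean of only 0.758 CPM. The L5-6 libraries also held more oligodendrocyte and precursor RNA, 8 markers summing to between 1066 and 3876 CPM there, against 348.2 to 481 CPM in L4 and 465.8 to 708.9 CPM in L2-3, and the part of these cells in the members' levels was not tested. GFP mouse 1 had the highest sum in L5-6, and it was also the highest L5-6 library for Pcdh15.

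Pcdh9 and Cdh22 were higher in L5-6 and in L4 than in L2-3. Pcdh9 had 136.9, 165 and 215 CPM in L5-6, against 100.3, 154 and 172 CPM in L4 and 74.4, 83.8 and 117 CPM in L2-3, and L5-6 did not overlap L2-3. Cdh22, known as the pituitary and brain cadherin in the rat, had 6.504, 10.3 and 12.2 CPM in L5-6, against 6.30, 8.45 and 9.70 CPM in L4 and 3.74, 5.27 and 6.44 CPM in L2-3. The log2 fold change of L5-6 over L2-3 was 0.93 ± 0.10 for Pcdh9 (edgeR, adjusted p = 5.83e-06) and 0.89 ± 0.13 for Cdh22 (adjusted p = 9.15e-05), and that of L4 over L2-3 was 0.69 ± 0.10 and 0.64 ± 0.13. Cdh22 did not pass for L4 over L2-3 in the FOXP2 mice alone (adjusted p = 0.0565). For L5-6 over L4 neither passed, at 0.24 ± 0.10 for Pcdh9 (adjusted p = 0.0715) and 0.26 ± 0.13 for Cdh22 (adjusted p = 0.131).

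The broadly distributed Cdh2 and Cdh13 had smaller steps. Cdh13 had 133, 157 and 211 CPM in L5-6, against 98.5, 116 and 150.3 CPM in L4 and 54.6, 114 and 149 CPM in L2-3. Cdh2 had 140.3, 168 and 209.5 CPM in L5-6, against 105, 132 and 157 CPM in L4 and 107, 132 and 169.6 CPM in L2-3. The layers overlapped in both genes, yet within each of the 6 mice L5-6 was above L2-3. The log2 fold change of L5-6 over L2-3 was 0.62 ± 0.12 for Cdh13 (edgeR, adjusted p = 0.00106) and 0.34 ± 0.06 for Cdh2 (adjusted p = 4.70e-04), and neither passed for L4 over L2-3. For L5-6 over L4 it was 0.39 ± 0.06 for Cdh2 and 0.45 ± 0.12 for Cdh13, which no longer passed without the mouse as a block (adjusted p = 0.0738) or in the GFP mice alone (adjusted p = 0.0906).

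Among the genes highest in L4, Pcdh20 had 8.32, 15.7 and 28.1 CPM in L5-6, against 30.9, 39.6 and 54.0 CPM in L4 and 13.4, 21.6 and 38 CPM in L2-3. Cdh6, the kidney cadherin, had 59.9, 105.4 and 129.6 CPM in L5-6, against 123.9, 211 and 221 CPM in L4 and 95.4, 121 and 191 CPM in L2-3. The L4 libraries of Pcdh20 lay above every L5-6 library and overlapped L2-3, and those of Cdh6 overlapped both. Against L5-6 the overlap of Cdh6 came from the L4 library of GFP mouse 1, which lay below the L5-6 library of huFOXP2 mouse 1. Pcdh20 was lower in L5-6 than in L4 by a log2 fold change of -1.40 ± 0.21 (edgeR, adjusted p = 2.87e-04) and higher in L4 than in L2-3 by 0.74 ± 0.21 (adjusted p = 0.0129). Cdh6 was lower in L5-6 than in L4 by -0.93 ± 0.16 (adjusted p = 7.90e-04) and higher in L4 than in L2-3 by 0.54 ± 0.16 (adjusted p = 0.0165). For L4 over L2-3, Cdh6 was at 0.97 ± 0.11 in the FOXP2 mice alone (adjusted p = 5.33e-05) and at 0.15 ± 0.09 in the GFP mice alone, where it did not pass (adjusted p = 0.375). Pcdh20 did not pass for L4 over L2-3 without the moFoxp2 mouse (adjusted p = 0.0675), without huFOXP2 mouse 2 (0.0657), without the mouse as a block (0.0655) or in the GFP mice alone (0.242).

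Cdh8 and Cdh7 also had their highest median in L4. Cdh8 had 36.4, 76.4 and 97.6 CPM in L5-6, against 75.4, 125 and 157 CPM in L4 and 52.1, 83.5 and 133 CPM in L2-3. Cdh7 had 6.57, 17.7 and 23.2 CPM in L5-6, against 14.0, 24.6 and 27.5 CPM in L4 and 9.37, 10.8 and 15.2 CPM in L2-3. The layers overlapped in both genes, and GFP mouse 1 was the lowest in L4 and in L5-6 for both. Cdh8 was lower in L5-6 than in L4 by -0.77 ± 0.19 (edgeR, adjusted p = 0.00752; 0.131 in the FOXP2 mice alone), and Cdh7 was higher in L4 than in L2-3 by 1.03 ± 0.17 (adjusted p = 4.39e-04), the largest log2 fold change among members higher in that comparison. Cdh7 was also higher in L5-6 than in L2-3 over the 6 mice, by 0.46 ± 0.17 (adjusted p = 0.0462). That difference was 0.97 ± 0.12 in the FOXP2 mice alone and -0.08 ± 0.14 in the GFP mice alone (edgeR, adjusted p = 0.719). The type II cadherin Cdh12 was also lower in L5-6 than in L4, by -0.66 ± 0.20 (adjusted p = 0.0215), but not when GFP mouse 2 (0.0744), GFP mouse 3 (0.0660) or the moFoxp2 mouse (0.0628) was left out, nor without the mouse as a block (0.0958).

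The delta2 protocadherins Pcdh19 and Pcdh10 both act in neural circuit assembly, and loss of human PCDH19 causes an X-linked epilepsy that affects mostly girls. Pcdh19 had 60.7, 102 and 126 CPM in L5-6, against 85.6, 126 and 209.6 CPM in L4 and 68.7, 101 and 153 CPM in L2-3. It was higher in L4 than in L2-3 by 0.30 ± 0.10 (edgeR, adjusted p = 0.0258) and lower in L5-6 than in L4 by -0.40 ± 0.10 (adjusted p = 0.00582), each in 6 of 6 mice. Without the mouse as a block these adjusted p were 0.320 and 0.161, and the first was 0.110 without the moFoxp2 mouse, 0.0782 in the FOXP2 mice alone and 0.0882 in the GFP mice alone. The second was -0.19 in the FOXP2 mice alone and did not pass (adjusted p = 0.210). Pcdh10 had a median of 221 CPM in L5-6, 222 CPM in L4 and 191 CPM in L2-3, and no layer comparison of it passed over the 6 mice. In the FOXP2 mice alone it was higher in L4 than in L2-3 by 0.26 ± 0.08 (adjusted p = 0.0224), against -0.07 ± 0.11 in the GFP mice alone.

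Toward the surface, Pcdh8 was the neuronal member with the largest difference. Known in the rat as arcadlin, a protocadherin induced by synaptic activity that draws N-cadherin from the membrane, it had 20.1, 23.1 and 27.8 CPM in L5-6, against 32.6, 51.2 and 65.4 CPM in L4 and 45.1, 74.8 and 87.2 CPM in L2-3. Every L5-6 library lay below every library of the upper layers. The log2 fold change was -1.59 ± 0.11 for L5-6 over L2-3 (edgeR, adjusted p = 1.22e-07), -1.07 ± 0.11 for L5-6 over L4 and -0.52 ± 0.11 for L4 over L2-3. R-cadherin (Cdh4) had 19.0, 28.8 and 41.1 CPM in L5-6, against 29.9, 50.7 and 63.2 CPM in L4 and 32.4, 50.8 and 61.8 CPM in L2-3. It was lower in L5-6 than in L2-3 by -0.77 ± 0.11 (adjusted p = 6.28e-05) and lower than in L4 by -0.71 ± 0.11, in 6 of 6 mice each, and its L4 and L2-3 levels did not pass.

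**Figure D2:**
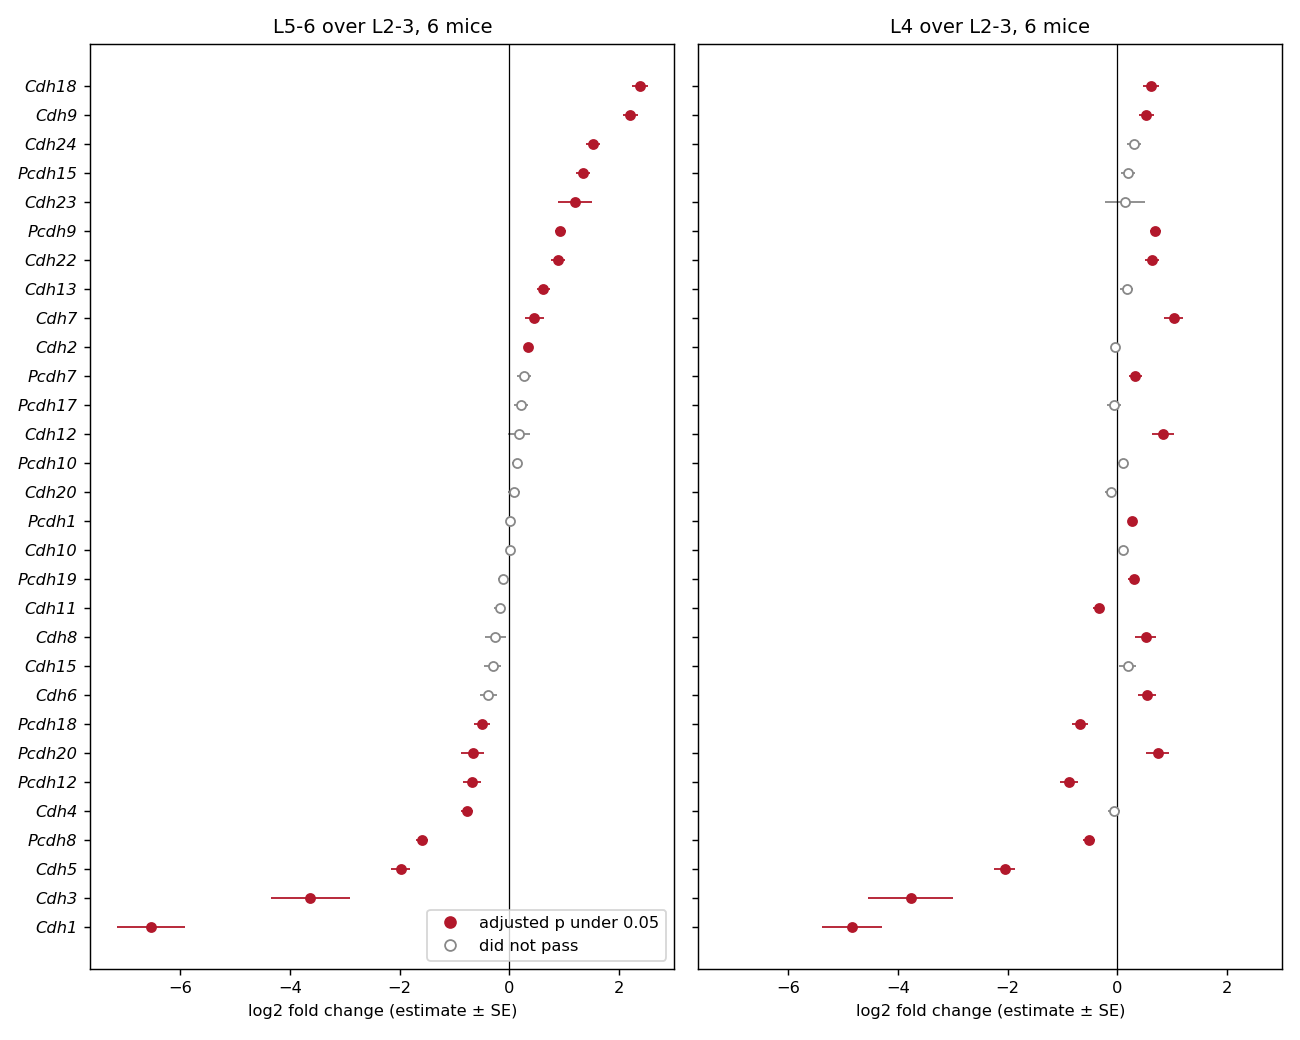
Log2 fold change of the 30 members tested, L5-6 over L2-3 (left) and L4 over L2-3 (right), with bars for the SE over 6 mice; filled points passed an adjusted p of 0.05. Cdh18 and Cdh9 stand at the top of the left panel at 2.39 and 2.21 and Cdh1 at the bottom at -6.54, and Cdh7 is the rightmost point for L4 over L2-3 at 1.03.

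Members known from blood vessels were also higher in L2-3. Cdh5 had 20.1, 22.96 and 32.5 CPM in L5-6, against 20.8, 22.1 and 28.8 CPM in L4 and 56.1, 99.1 and 127 CPM in L2-3, and all L2-3 libraries lay above all others. Its log2 fold change was -1.98 ± 0.18 for L5-6 over L2-3 (edgeR, adjusted p = 1.40e-06) and -2.05 ± 0.19 for L4 over L2-3 (adjusted p = 4.61e-06). Pcdh12, a protocadherin of endothelium, was lower in L5-6 than in L2-3 by -0.68 ± 0.16 (adjusted p = 0.00317; 0.0941 in the GFP mice alone) and lower in L4 than in L2-3 by -0.88 ± 0.16 (adjusted p = 0.00100). The delta2 protocadherin Pcdh18 was lower in L4 than in L2-3 by -0.68 ± 0.15 (adjusted p = 0.00355; 0.179 in the GFP mice alone). The type II cadherin Cdh11, known from mesenchymal cells and bone, was lower in L4 than in L2-3 by -0.34 ± 0.10 (adjusted p = 0.0170; 0.181 in the GFP mice alone). Of 8 endothelial markers, 7 were lower in L5-6 than in L2-3 and 1 was higher. Their sum was 229.1 to 409.6 CPM in L5-6, 219 to 340.1 CPM in L4 and 437 to 876 CPM in L2-3. Markers of meningeal fibroblasts (8 of 8), pericytes and smooth muscle (4 of 6) and astrocytes (4 of 7) were also lower in L5-6, and 0 higher. The part of each cell type in these members was not tested. More cells of a type and more RNA per cell cannot be told apart in such tissue libraries.

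E-cadherin (Cdh1) was abundant in some of the L2-3 libraries. No L5-6 library was above 0.306 CPM and no L4 library above 2.42 CPM. It had 58.1, 35.7 and 0 CPM in L2-3 of huFOXP2 mouse 1, huFOXP2 mouse 2 and the moFoxp2 mouse, against 0, 21.1 and 17.2 CPM in GFP mice 1 to 3. A count of 0 allows up to 0.219 CPM in the L2-3 library of the moFoxp2 mouse and 0.171 CPM in that of GFP mouse 1, counting error only. P-cadherin (Cdh3) had 3.69, 1.83 and 0 CPM in L2-3 of the FOXP2 mice in that order, against 0.114, 0.960 and 0.956 CPM in the GFP mice. Both genes thus had the same 4 mice above the other 2, and these 4 hold both huFOXP2 mice and 2 GFP mice. Over 6 mice Cdh1 was lower in L5-6 than in L2-3 by -6.54 ± 0.62 (edgeR, adjusted p = 1.80e-06) and Cdh3 by -3.63 ± 0.72 (adjusted p = 0.00109), resting on 22 and 9 counts in all of L5-6.

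E-cadherin is known from epithelia and, in the mouse, from the arachnoid barrier layer of the meninges. In L2-3 the 8 meningeal fibroblast markers, which passed as lower in L5-6 in 8 of 8 cases, summed to 2119, 1514 and 1422 CPM in the FOXP2 mice in the same order, against 395, 1229 and 907 CPM in the GFP mice. GFP mouse 1, with no Cdh1, was lowest for them, but the moFoxp2 mouse also had no Cdh1 and lay above both GFP mice that had it. The part of meningeal tissue in the 2 genes was not tested.

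**Figure D3:**
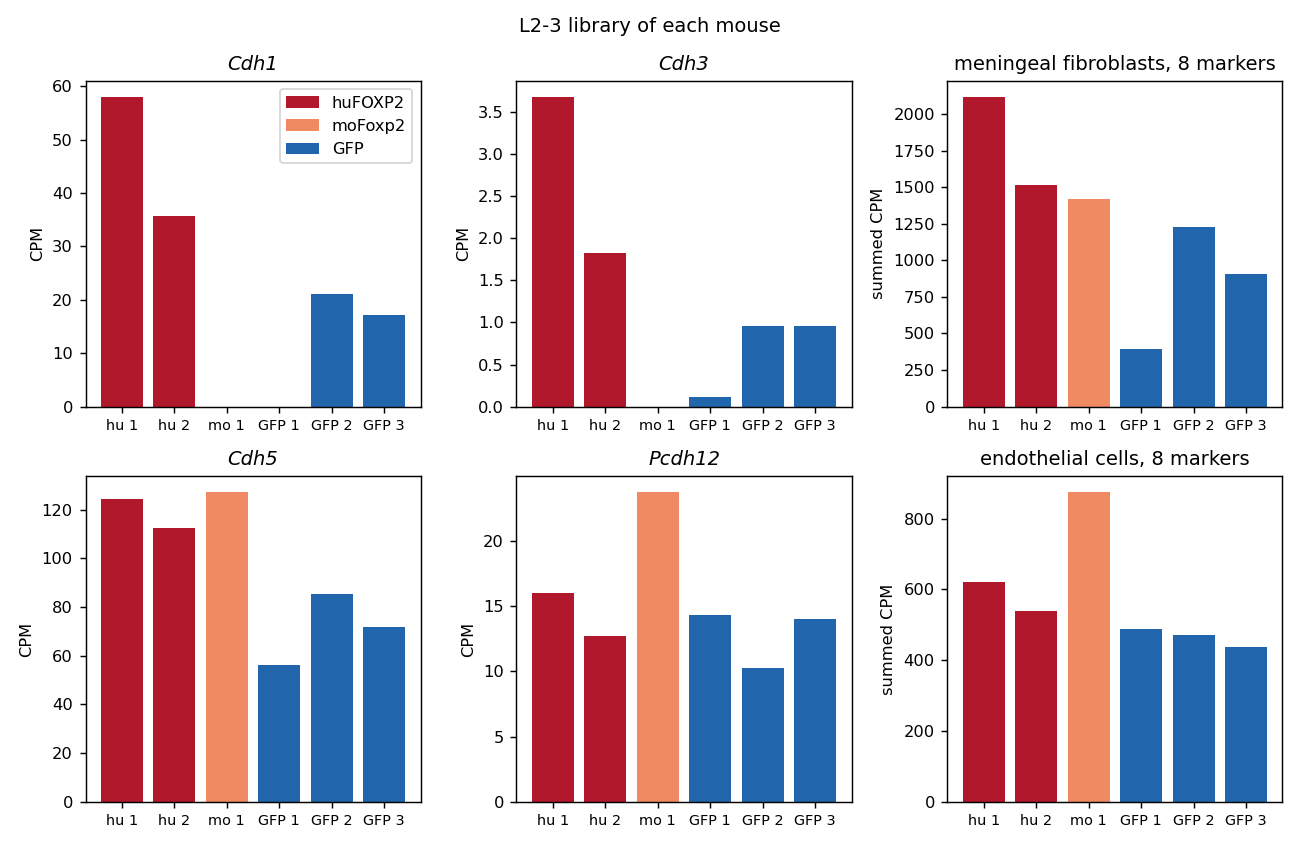
L2-3 library of each mouse (bars, from 0), huFOXP2 mice 1 and 2 (hu), the moFoxp2 mouse (mo) and GFP mice 1 to 3: CPM of Cdh1, Cdh3, Cdh5 and Pcdh12 and summed CPM of 8 meningeal fibroblast and 8 endothelial markers. Cdh1 and Cdh3 are at or near 0 in the moFoxp2 mouse and GFP mouse 1, and Cdh5 is at 113 to 127 CPM in the FOXP2 mice, against 56.1 to 85.5 CPM in the GFP mice.

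M-cadherin (Cdh15), a type I cadherin of muscle precursors, differed mainly between mice, and the split did not follow the construct. Its mean over the 3 layers was 5.70 CPM in huFOXP2 mouse 1, 0.951 CPM in huFOXP2 mouse 2 and 5.33 CPM in the moFoxp2 mouse, against 0.418, 5.13 and 0.484 CPM in GFP mice 1 to 3. In every layer the same 3 mice lay above the other 3, at 3.97 CPM or more against 1.05 CPM or less. The gene is on chromosome 8, from 122847966 to 122867397 (mm10). The neighbours compared, none of which overlaps it, did not split the mice that way. Ankrd11 had 140.0, 154.6 and 148.5 CPM in the FOXP2 mice, against 160.4, 174 and 157 CPM in the GFP mice. A gene model that overlaps Cdh15 on the same strand was not among those compared. Cdh15 was lower in L5-6 than in L4 by -0.50 ± 0.15 (edgeR, adjusted p = 0.0218), in 6 of 6 mice.

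**Figure D4:**
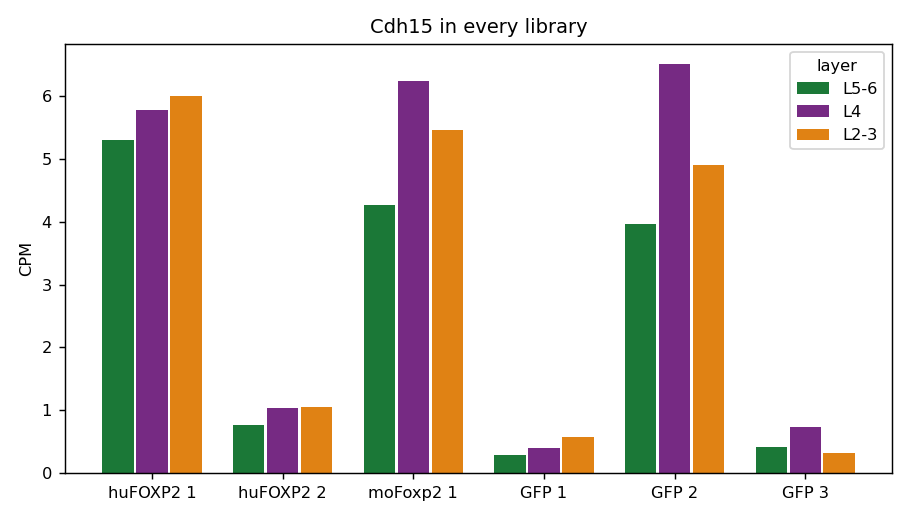
CPM of Cdh15 in L5-6, L4 and L2-3 (bars, from 0) of each of the 6 mice, FOXP2 mice left of GFP mice. All 3 layers of huFOXP2 mouse 1, the moFoxp2 mouse and GFP mouse 2 are at 3.97 CPM or more and those of the other mice at 1.05 CPM or less.

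FOXP2 was then set against GFP within each layer. No member passed in any layer: 0 of 28 in L5-6, 0 of 27 in L4 and 0 of 29 in L2-3, where 0.0196%, 0.0275% and 0.0722% of all genes passed. At an unadjusted p under 0.05 there were 3, 1 and 8 members, where 6.17%, 3.14% and 15.8% of all genes were. DESeq2 called 0, 0 and 5 members, where it called 0.365%, 0.220% and 4.95% of all genes. In L2-3, edgeR called 4 members without GFP mouse 1, namely Cdh5, Cdh6, Cdh12 and Pcdh9, where 1.26% of all genes passed. The groups did not overlap for 4, 1 and 6 members, where 13.6%, 7.71% and 20.5% of all genes did not overlap. On simulated counts for L4, 100 genes were changed by a log2 fold change of 2, 100 by 1 and the others not at all. The test recovered 97% and 72% of these genes, and 9.14% of its calls were false. In the data 4 of 14544 genes passed in L4. The adjusted threshold depends on how many genes change, so these shares do not give the chance of finding a changed member. L5-6 and L2-3 were not simulated for FOXP2 over GFP.

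The smallest p-values in L2-3 were those of Cdh5, Cdh12 and Pcdh18. Cdh12 had 14.8, 17.4 and 16.0 CPM in huFOXP2 mouse 1, huFOXP2 mouse 2 and the moFoxp2 mouse, against 22.6, 37.2 and 45.5 CPM in GFP mice 1 to 3, a log2 fold change of -1.13 ± 0.23 (edgeR, adjusted p = 0.0974). Cdh5 had 125, 113 and 127 CPM in the FOXP2 mice, against 56.1, 85.5 and 72.0 CPM in the GFP mice, a log2 fold change of 0.77 ± 0.15 (adjusted p = 0.0922). Pcdh18 had 24.8, 19.3 and 25.3 CPM in the FOXP2 mice, against 11.3, 15.2 and 14.6 CPM in the GFP mice, a log2 fold change of 0.76 ± 0.16 (adjusted p = 0.106). In all 3 genes the groups did not overlap. DESeq2 called each of them (adjusted p = 5.98e-04, 8.91e-04 and 0.00660 for Cdh12, Cdh5 and Pcdh18). Endothelial marker sums in L2-3 were 622, 539 and 876 CPM in the FOXP2 mice, against 489, 470 and 437 CPM in the GFP mice, and their part in the level of Cdh5 was not tested.

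In L5-6 the smallest p-values were those of Cdh8, Cdh7 and Cdh24. Cdh8 had 84.1, 97.6 and 90.3 CPM in the FOXP2 mice, against 36.4, 56.8 and 68.8 CPM in the GFP mice, a log2 fold change of 0.73 ± 0.20 (edgeR, adjusted p = 0.713). Cdh7 had 23.2, 18.9 and 19.1 CPM in the FOXP2 mice, against 6.57, 11.8 and 16.6 CPM in the GFP mice, a log2 fold change of 0.79 ± 0.29 (adjusted p = 0.713). GFP mouse 1 was the lowest in both and the groups did not overlap. Cdh24 had 18.8, 31.1 and 26.02 CPM in the FOXP2 mice, against 35.7, 29.9 and 36.2 CPM in the GFP mice, and overlapped. In L4 the smallest were Cdh24 (-0.53 ± 0.19), Pcdh18 (0.40 ± 0.19) and Pcdh8 (0.37 ± 0.19), all with an adjusted p of 0.9999 by edgeR.

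The difference between layers in the FOXP2 effect was tested as an interaction with the mouse as a block. For L5-6 against L2-3, 9 of 30 members passed, 6 with the effect higher in L5-6 and 3 with it lower, where 14.9% of all genes passed, 6.53% higher and 8.41% lower. All 9 were lost without huFOXP2 mouse 1 and without the mouse as a block, and 5 passed without huFOXP2 mouse 2. Of all genes, 1 of 16176 passed without huFOXP2 mouse 1, 0 of 15952 without the block and 1402 of 16175 without huFOXP2 mouse 2. DESeq2 called 9 members and 15.5% of all genes. For L4 against L2-3 edgeR called 0 members (9 at an unadjusted p under 0.05), where 0% of all genes passed and 17.5% had an unadjusted p under 0.05. DESeq2 called 6 members there and 3.23% of all genes. For L5-6 against L4 edgeR called 0 (3 at an unadjusted p under 0.05), where 0.00613% of all genes passed and 5.65% had an unadjusted p under 0.05. DESeq2 called 0 members there and 0.0675% of all genes. The smallest p-values for L4 against L2-3 were those of Cdh6 (0.83 ± 0.15) and Cdh12 (1.05 ± 0.20), both with an adjusted p of 0.0546, and Pcdh9 (0.56 ± 0.12, adjusted p = 0.0639). For L5-6 against L4 they were those of Cdh7 (0.58 ± 0.19), Pcdh19 (0.42 ± 0.16) and Pcdh18 (-0.47 ± 0.21), each with an adjusted p of 0.805 by edgeR.

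The members with the effect higher in L5-6 were Cdh12 at 1.28 ± 0.20 (edgeR, adjusted p = 0.00840), Pcdh20 at 1.21 ± 0.26, Cdh7 at 1.05 ± 0.20, Cdh6 at 0.99 ± 0.15, Pcdh7 at 0.68 ± 0.14 and Pcdh9 at 0.49 ± 0.12. Without huFOXP2 mouse 1 they were at 1.13 (Cdh12), 0.88 (Pcdh20), 0.89 (Cdh7), 0.86 (Cdh6), 0.68 (Pcdh7) and 0.52 (Pcdh9), with adjusted p between 0.0625 and 0.0865. Without the mouse as a block they were at 1.23, 1.22, 1.0, 0.96, 0.67 and 0.49 in the same gene order, with adjusted p between 0.128 and 0.313. In L5-6 the log2 fold change of FOXP2 over GFP was between 0.03 and 0.79 in these 6 genes, and in L2-3 between -1.13 and -0.21. Cdh12 was the clearest case of opposite layer differences. L5-6 was above L2-3 by 0.85 ± 0.14 in the FOXP2 mice alone (adjusted p = 6.55e-04) and below it by -0.42 ± 0.12 in the GFP mice alone (adjusted p = 0.0352). Cdh6 had 129.6 (huFOXP2 mouse 1), 105.9 and 104.9 CPM in L5-6 and 99.2, 95.4 and 116 CPM in L2-3 of the FOXP2 mice, against 59.9, 96.3 and 115 CPM in L5-6 and 126, 166 and 191 CPM in L2-3 of the GFP mice.

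The members with the effect lower in L5-6 were Cdh5 at -0.95 ± 0.23 (edgeR, adjusted p = 0.0176), Pcdh18 at -0.83 ± 0.21 and Cdh24 at -0.56 ± 0.18. They were at -0.99, -0.90 and -0.45 without huFOXP2 mouse 1 and at -0.97, -0.84 and -0.53 without the mouse as a block, in the same gene order, and none passed. Cdh5 lost its call also without the moFoxp2 mouse (adjusted p = 0.0577) and without huFOXP2 mouse 2 (0.0564). Pcdh18 and Cdh5 had their higher FOXP2 values in L2-3, whereas Cdh24 was lower in FOXP2 mice in L5-6 (-0.43 ± 0.19) and close to even in L2-3 (0.10 ± 0.16).

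**Figure D5:**
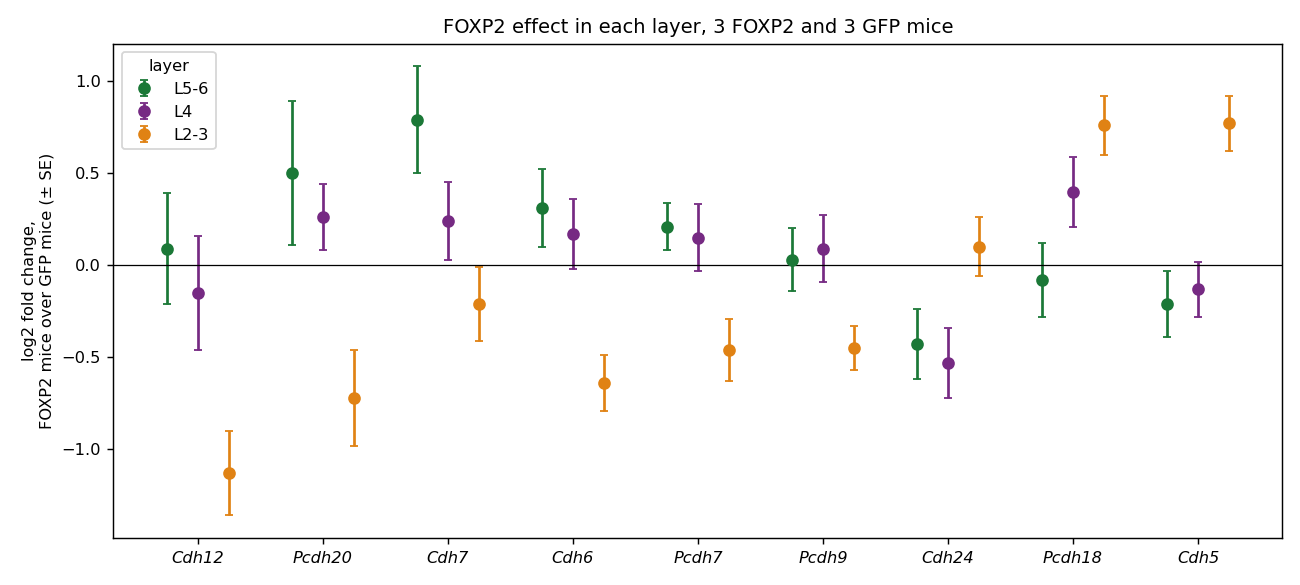
Log2 fold change of FOXP2 mice over GFP mice (vertical axis, bars are the SE) in L5-6, L4 and L2-3 for the 9 members whose FOXP2 effect differed between L5-6 and L2-3. Cdh12 is at 0.09, -0.15 and -1.13 in L5-6, L4 and L2-3, and Cdh5 is at -0.21, -0.13 and 0.77.

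Markers of some neurons, vessels and glia passed in the same interaction, where 14.9% of all genes passed. The FOXP2 effect was higher in L5-6 than in L2-3 for 6 of 8 layer 2-3 markers and 4 of 8 layer 4 markers. It was lower for 5 of 8 endothelial and 6 of 7 astrocyte markers. So it was for 4 of 8 oligodendrocyte and precursor and 3 of 6 pericyte and smooth muscle markers. Of 12 layer 6 and subplate markers 2 were lower, and of 11 interneuron markers 1 was higher and 1 lower. Foxp2, the introduced gene, is among these 12 markers and was 1 of the 2 lower ones (-2.72 ± 0.35, edgeR, adjusted p = 0.00840). Of 9 layer 5 markers 0 passed. The layer 4 markers summed to 461.6, 383 and 351 CPM in L5-6 of the FOXP2 mice, against 231, 326 and 384 CPM in the GFP mice. In L2-3 they summed to 255, 279 and 246 CPM in the FOXP2 mice, against 478, 417 and 414 CPM in the GFP mice, without overlap. The 6 members with the effect higher in L5-6 had log2 fold changes of L4 over L2-3, in the GFP mice alone, of 0.36 (Cdh12), 0.29 (Pcdh20), 0.81 (Cdh7), 0.15 (Cdh6), 0.03 (Pcdh7) and 0.42 (Pcdh9). Of these Cdh7 (adjusted p = 0.0140) and Pcdh9 (adjusted p = 0.0395) passed by edgeR, and the GFP libraries of L2-3 enter the interaction too. The part of the dissected tissue's makeup in the interaction was not tested.

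Between constructs, with the 3 layers of a mouse summed, huFOXP2 over GFP called 0 of 32 members by edgeR (2 at an unadjusted p under 0.05, DESeq2 0), where 0.0159% of all genes passed, 4.61% had an unadjusted p under 0.05 and DESeq2 called 0.308%. huFOXP2 over moFoxp2 called 0 of 32 (2 at an unadjusted p under 0.05, DESeq2 0), where 0% of all genes passed, 2.24% had an unadjusted p under 0.05 and DESeq2 called 0.117%. The smallest p-values for huFOXP2 over GFP were those of Cdh3 (2.06 ± 0.61), Cdh5 (0.49 ± 0.19) and Cdh17 (1.16 ± 0.61), and for huFOXP2 over moFoxp2 those of Cdh3 (4.41 ± 1.21), Cdh1 (7.44 ± 2.63) and Cdh22 (0.36 ± 0.25). The L2-3 levels of Cdh1 and Cdh3 are given above. There was 1 moFoxp2 mouse, which is assumed to vary like the others.

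The partners of these proteins were counted from 4 lists. Of 16 catenins and junction scaffolds, 2 were higher and 6 lower in L5-6 than in L2-3 by edgeR, 4 higher and 6 lower in L4 than in L2-3, and 3 higher and 4 lower in L5-6 than in L4. Of all genes tested, 38.2%, 35.4% and 34.8% passed in these comparisons, in that order. Nectin3, an immunoglobulin-type adhesion protein of adherens junctions, averaged 47.2 ± 10.9 CPM in L5-6 and 108 ± 21.4 CPM in L2-3 (SD, n = 6 mice), a log2 fold change of -1.19 ± 0.16. Beta-catenin (Ctnnb1), which links classical cadherins to alpha-catenin, averaged 775 ± 74.5 CPM in L5-6 and 539.7 ± 32.8 CPM in L4, a log2 fold change of 0.52 ± 0.07. Of 15 atypical cadherins, 2 were higher and 4 lower in L5-6 than in L2-3, where 38.2% of all genes passed. Among them the giant cadherin Fat4 averaged 54.7 ± 9.35 CPM in L5-6 and 131.5 ± 34.95 CPM in L2-3, a log2 fold change of -1.24 ± 0.10, and Fat2 was lower by -3.42 ± 0.47.

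Of 7 desmosomal cadherins 4 passed the filter, and Dsg2 was higher in L5-6 than in L2-3 by 2.4 ± 0.34, at a mean of 3.06 CPM. Of 13 shedding proteases and WAVE complex members, 2 were higher and 1 lower in L5-6 than in L2-3, where 38.2% of all genes passed. Wasf1, a WAVE complex subunit of neurons, was lower by -0.37 ± 0.09. For FOXP2 over GFP no gene of these lists passed in any layer, where at most 0.0722% of all genes passed. In the interaction of L5-6 against L2-3, 14.9% of all genes passed. There 4 atypical cadherins passed higher and 1 lower, Fat3 at 1.34 ± 0.23 and Celsr1 at -2.18 ± 0.49 among them. In each direction 2 catenins and scaffolds passed, Nectin1 at 0.83 ± 0.23 and the alpha-catenin Ctnna1 at -0.81 ± 0.19 among them. Without the mouse as a block no gene of any kind passed this interaction, and without huFOXP2 mouse 1 a single gene of all did.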

How the data were processed

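The authors deposited raw read counts per gene for the 18 libraries (per the labels' protocols, total RNA and Illumina TruSeq). STAR, HTSeq and the mm10 genome are named per the submitters' processing notes, while versions, gene models and strand handling are not given in the sources read. GENCODE M21 gave positions and exon lengths, and 33 of 34 member identifiers matched it with their version. Genes were filtered with filterByExpr (minimum count 10, minimum total 15) and tested with edgeR 4.0.16 (quasi-likelihood, TMM factors, Benjamini-Hochberg adjustment over all genes tested, threshold 0.05). The SE is the absolute log2 fold change divided by the root of F. DESeq2 1.42.0 was an alternative. CPM used TMM factors over all libraries. The 3 libraries of a mouse are paired by the labels, which say that layers were pooled per mouse, and the deviations of same-mouse libraries correlated in 18 of 18 pairs (0.266 to 0.709 over 15169 genes). Mouse was therefore the block between layers. No 2 replicate libraries of the same construct and layer were alike within sampling noise. The moFoxp2 libraries had no replicate to compare. Only the fits for L5-6 over L2-3 and for FOXP2 over GFP in L4 were tested on simulated counts. The simulated counts held no mouse effect, so they do not test the use of mouse as a block. Genes were named by a fixed rule: in layer comparisons up to 6 passing members per direction with 1 sign in all 6 mice and at least 1 CPM, otherwise the 3 smallest p, and 6 members for their role (Cdh1, Cdh2, Cdh5, Cdh13, Pcdh10, Pcdh19). Cdh3, Cdh11, Cdh15, Cdh23 and the levels by length were described after their values were seen. Members and lists were chosen with earlier results of these data known.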

Additional observations from a re-analysis of the deposited data

Results flagged for a closer look

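In 2 of 46 checks of the log2 ratio between layers over the 6 mice (with 0.5 CPM added), 1 mouse lay far from the others. For Cdh6, L5-6 over L4, huFOXP2 mouse 1 was at -0.49 and the other 5 mice between -1.11 and -0.89. For Pcdh10, L5-6 over L4, GFP mouse 1 was at 0.48 and the others between -0.20 and 0.04. Chance flags about 1 in 20 such groups.

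The FOXP2 effect differed between L5-6 and L2-3 by the interaction test for 9 members. The log2 difference was 1.28 for Cdh12, 1.21 for Pcdh20, 1.05 for Cdh7, 0.99 for Cdh6, 0.68 for Pcdh7, 0.49 for Pcdh9, -0.56 for Cdh24, -0.83 for Pcdh18 and -0.95 for Cdh5. None of the 9 passed without huFOXP2 mouse 1 or without the mouse as a block, where 1 of 16176 and 0 of 15952 genes of any kind passed. Without huFOXP2 mouse 1 the differences were 1.13 for Cdh12, 0.88 for Pcdh20, 0.89 for Cdh7, 0.86 for Cdh6, 0.68 for Pcdh7, 0.52 for Pcdh9, -0.45 for Cdh24, -0.90 for Pcdh18 and -0.99 for Cdh5. The libraries of huFOXP2 mouse 1 are the ones that hold photoreceptor markers, and the part of these in the results was not tested.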

How the results depend on the processing

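The 73 named results gave 822 values under other settings, of which 759 kept direction and call, 37 lost the call, 22 gained one and 4 turned direction. The turned values, none of them called, were Pcdh19 L5-6 over L2-3 in the FOXP2 mice alone (0.05), Pcdh10 L4 over L2-3 in the GFP mice alone (-0.07), and Pcdh10 L5-6 over L4 without GFP mouse 1 (-0.04, the lowest of -0.04 to 0.09 with each mouse left out in turn) and in the FOXP2 mice alone (-0.05). Members called for L4 over L2-3 came to 8 in the GFP mice alone (1018 of 16120 genes in all) and 17 in the FOXP2 mice alone (6875 of 15772). With no filter on low counts, 2 members passed for FOXP2 over GFP in L5-6 (1.11% of all genes) and 7 in L2-3 (3.04%). For the FOXP2 effect that setting called 7 members for L4 minus L2-3 (4.06% of all genes) and 1 for L5-6 minus L4 (0.781%). For huFOXP2 over GFP it called 2 members (1.26% of all genes). DESeq2 called 5 members for FOXP2 over GFP in L2-3 (4.95% of all genes) and 6 for the effect L4 minus L2-3 (3.23%). Leaving out 1 mouse gave 0 to 4 members for FOXP2 over GFP in L2-3, where 0.019% to 1.26% of all genes passed. For the effect L5-6 minus L2-3 it gave 0 to 9 members, where 0.00618% to 21.1% of all genes passed. The cause of these shifts was not tested.

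Pairing by mouse mattered: with no replicate block, 11 members and 22.8% of all genes were called for L5-6 over L4. For the effect L5-6 minus L2-3, 0 members and 0 of 15952 genes were called that way. Between constructs the huFOXP2 and GFP mice share only replicate numbers. Correlations of the difference between numbers 1 and 2 were 0.052, 0.03 and -0.069 in L5-6, L4 and L2-3. A replicate block on these numbers called 1 member, Cdh8, for FOXP2 over GFP in L5-6, and 0.291% of all genes. Depth limits the lowest members: 3 counts were 0.124 to 0.261 CPM in the L2-3 libraries.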
